A study of Equus caballus with 4 samples.

Results

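The genes described here encode glycoproteins of the extracellular matrix and the fibroblast surface. They are fibronectin (*FN1*), *SPARC*, periostin (*POSTN*), lumican (*LUM*), decorin (*DCN*), fibrillin 1 (*FBN1*), thrombospondin 1 (*THBS1*), tenascin C (*TNC*), fibroblast activation protein (*FAP*) and microfibril associated protein 5 (*MFAP5*). A member was any of these 10 genes, and its probes were all noncontrol probes that carried its symbol as gene name in the array files, with upper and lower case treated alike. Of the 10 genes, 9 were found, with 38 of the 43603 probes of the array and 42 of its 43803 noncontrol spots. They stand among 13350 genes that the files name by a symbol. *TNC* was not found by symbol, and 5 probes described in the files as tenascin C are given separately below. They were added after their values were seen.

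RNA was compared between GO-treated and control equine satellite cells, the muscle precursor cells that fuse into myotubes, derived from *m. semitendinosus* and harvested on day 3 of differentiation. GO, gamma-oryzanol, is a mixture of ferulic acid esters of plant sterols from rice bran. GO-treated cells received 125 nM GO dissolved in DMSO (0.04 μl/ml) for 24 h, starting after day 2 of differentiation in low-serum medium, and control cells received the same amount of DMSO alone. All cells grew on collagen I plates. Each of 4 arrays, labelled as biological replicates 1 to 4, held Cy5-labelled RNA of GO-treated cells and Cy3-labelled RNA of control cells. The labels do not say whether the replicates came from separate horses, so p-values measure the spread between these 4 arrays. The methods describe a single cell line chosen for viability and fusion, with pre-plating used to deplete fibroblasts. Because the dyes were never exchanged, an effect of GO and an effect of the dye cannot be told apart.

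Matricellular proteins such as SPARC, periostin, thrombospondin 1 and tenascin C are secreted into the matrix and modulate adhesion and growth factor activity more than they bear load. Fibronectin and fibrillin 1 are assembled into fibrils, lumican and decorin are small leucine-rich proteoglycans that bind collagen fibrils, and FAP is a serine protease of activated fibroblasts. Muscle cultures contain both myogenic cells and interstitial fibroblasts, and the latter are a known source of much of this matrix.

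All 8 myogenic marker genes and all 9 fibroblast marker genes on the array, from lists of 13 and 11, were above background in both channels on all 4 arrays. The 8 are general genes of the myogenic lineage and of differentiation, such as *MYOD1*, *MYOG* and *DES*. *PAX7* and *CDH15*, which mark satellite cells themselves, were not found by symbol, so the label of the cells was not checked by them. Of 5 endothelial markers none was above background on any array, and of 5 adipocyte markers *ADIPOQ*, *CIDEC*, *FABP4* and *LEP* were not. Above background in both channels on all 4 arrays were 2 of 6 leukocyte markers, *CD14* and *CD68*. The same held for 3 of 5 smooth muscle and pericyte markers, *ACTA2*, *CSPG4* and *MYH11*. The share of noncontrol probes well above background was 57.4 to 67.0% in the GO channel and 63.5 to 68.9% in the control channel, with the lowest share of both channels on array 4. No spot was saturated. The filter on dim probes kept 26831 probes, those well above background in 1 channel or the other on all 4 arrays. All 38 member probes were among them and were above background in both channels on every array, so none was admitted through 1 treatment alone.

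Ratios are given as log2 of GO over control on 2 scales. The lowess ratio is the ratio that Feature Extraction, the scanner software, computed after fitting and removing a trend of the ratio with brightness. The median-centred ratio is that of background-subtracted signals, shifted so that the median of each array was 0, with no correction for brightness. A probe was said to pass when its adjusted p in limma (Benjamini-Hochberg over all probes tested) was at most 0.05 and its fold change at least 1.3, which is 0.38 on the log2 scale. Where a gene had several probes, the brightest stood for it.

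On the lowess scale, 1 of the 9 genes passed, *SPARC*, which was lower in GO-treated cells. This is beside 8.72% of all 9071 genes tested (5.39% lower and 3.33% higher). On the median-centred scale 5 of the 9 genes passed, *FN1*, *SPARC*, *DCN* and *FBN1* as higher and *POSTN* as lower, beside 11% of all genes (4.86% higher and 6.12% lower). By probe, 7 of 38 passed on the lowess scale, 1 higher and 6 lower, beside 8.94% of all probes tested (3.33% higher and 5.61% lower). With median centring 15 passed, 12 higher and 3 lower, beside 12.6% (6.49% higher and 6.15% lower). With normexp, a model-based background correction, followed by loess in limma, 5 member probes passed, all of them upstream probes of *SPARC* and all lower, beside 4.83% of all probes (1.79% higher and 3.04% lower). Without array 1 the median-centred count was 8 genes, 7 higher and 1 lower, and without array 2, 3 or 4 it was 4, all higher. The median of the 9 genes was 0.04 on the lowess scale and 0.36 on the median-centred scale, whereas the medians of all genes tested were 0.003 and 0.01. In RNA from a whole culture, fewer cells of a type and less RNA per cell cannot be told apart.

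**Figure D1:**
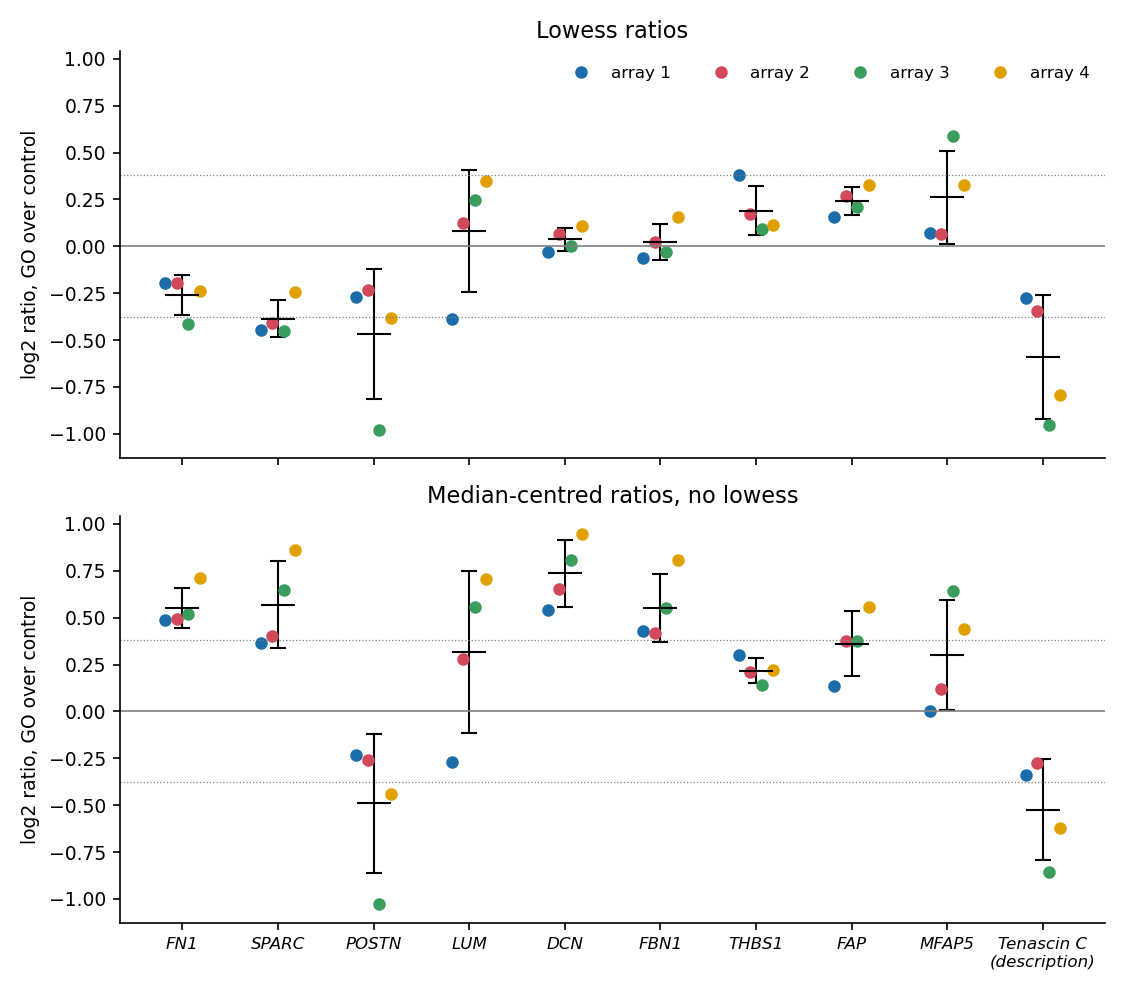
Log2 ratio of GO over control (vertical axis) for the brightest probe of each member on arrays 1 to 4 (coloured points), with the mean (horizontal bar) and SD (whiskers, n = 4), on the lowess scale (upper panel) and the median-centred scale (lower panel). Dotted lines mark a 1.3-fold difference. *FN1* and *SPARC* lie below 0 on all 4 arrays in the upper panel and above 0 on all 4 in the lower panel, whereas *POSTN* and tenascin C lie below 0 in both.

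The sequences of 6 probes on which the results turn, each 60 bases long, are given here. They were chosen because they differed from another probe of the gene, kept their direction on both scales, or belong to a set that steps along the transcript by a base or a few, so that neighbours repeat a measurement. Positions are those that the files give on EquCab1. Capitals mark the bases shared by all probes of a set with closely spaced start positions. These sets hold 6 probes of *FN1*, 2 of *POSTN*, 5 of *LUM* and 5 of tenascin C. Further probes of *FN1* and *POSTN* overlap these sets in part and do not share all the capitals. A sequence without capitals stands alone.
FN1 A_69_P006607: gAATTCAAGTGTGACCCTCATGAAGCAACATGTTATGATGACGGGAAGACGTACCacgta
POSTN A_69_P124626: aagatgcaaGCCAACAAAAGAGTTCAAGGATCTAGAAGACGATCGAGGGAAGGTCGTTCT
POSTN A_69_P124627: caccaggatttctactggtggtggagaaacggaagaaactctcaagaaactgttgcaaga
LUM A_69_P004726: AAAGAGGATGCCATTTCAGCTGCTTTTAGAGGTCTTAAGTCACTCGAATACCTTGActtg
DCN A_69_P004716: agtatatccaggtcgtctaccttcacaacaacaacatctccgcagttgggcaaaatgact
tenascin C A_69_P001871: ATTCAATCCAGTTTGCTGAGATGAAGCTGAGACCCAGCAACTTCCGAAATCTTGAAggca

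Of the probes printed, that of *FN1* lies on the minus strand at chr6:5493804-5494377, a span of 574 bases for 60 bases of probe, so that the files place it across a splice junction. The probe of *POSTN* with capitals likewise spans chr17:16238581-16239674, 1094 bases, and the other is contained in chr17:16244542-16244601. That of *LUM* lies at chr28:16774903-16774962 and that of tenascin C at chr25:15856387-15856446. The files give no position for the *DCN* probe.

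*SPARC*, a collagen-binding matricellular protein, was measured by 8 probes in 2 sets, which differed in brightness and in whether their sign depended on the scale. The 3 downstream probes, at chr14:25775716-25775815, were among the brightest 1% of all tested probes. For the brightest of them, A_69_P105443, the lowess ratios on arrays 1 to 4 were -0.45, -0.41, -0.45 and -0.24. They were below 0 on all 4 arrays, with a mean of -0.39 ± 0.10 (SD, n = 4; limma adjusted p = 0.0119). Median centring gave ratios of 0.37, 0.40, 0.64 and 0.86, above 0 on all 4 arrays, with a mean of 0.57 ± 0.23 (SD, n = 4; limma adjusted p = 0.00789). All 3 downstream probes passed on both scales, in opposite directions. The signals show where the sign turned. On array 1, the background-subtracted signal was 286807 for GO-treated and 195886 for control cells, and after the processing by Feature Extraction it was 104622 and 142639. On array 4 the corresponding signals were 304510 and 137821 before, and 93702 and 110733 after. The call on the lowess scale was lost for this probe without array 1 (mean -0.37, under the fold threshold), array 2 (limma adjusted p = 0.0624) or array 3 (limma adjusted p = 0.0544). Of the other 2 downstream probes, A_69_P105442 kept the call whichever array was left out.

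The 5 upstream probes of *SPARC*, at chr14:25774804-25774867, overlap in steps of a base and share 56 bases. Their mean lowess ratios on arrays 1 to 4 were -0.11, -0.45, -0.38 and -1.06, and their mean median-centred ratios were -0.09, -0.29, -0.25 and -0.85. They were thus below 0 on all 4 arrays on both scales, and array 4 was the lowest on both. By probe, 1 of the 5 passed on the lowess scale, A_69_P061772 (mean -0.54, limma adjusted p below the threshold only with all 4 arrays or without array 1), and none of the 5 on the median-centred scale. With normexp and loess all 5 passed as lower (means -0.58 to -0.49, limma adjusted p = 0.0253 to 0.0466), whereas the 3 downstream probes had means of -0.05, -0.05 and -0.0040 and none passed (limma adjusted p = 0.524, 0.547 and 0.970). With the channels treated as unpaired, the member probes that passed were the 3 downstream probes alone (limma adjusted p = 0.0148 to 0.0287). Downstream minus upstream, the sets differed by 0.09 ± 0.50 on the lowess scale (SD, n = 4; exact sign-flip test, two-sided p = 0.875). With median centring they differed by 0.88 ± 0.53, with the downstream set higher on 4 of 4 arrays (exact sign-flip test, two-sided p = 0.13, the smallest that 4 arrays allow). The direction of *SPARC* therefore rested on the scale for the downstream probes. For the 5 upstream probes it was the same in all 19 alternative settings, some of which leave the mean ratio unchanged.

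**Figure D2:**
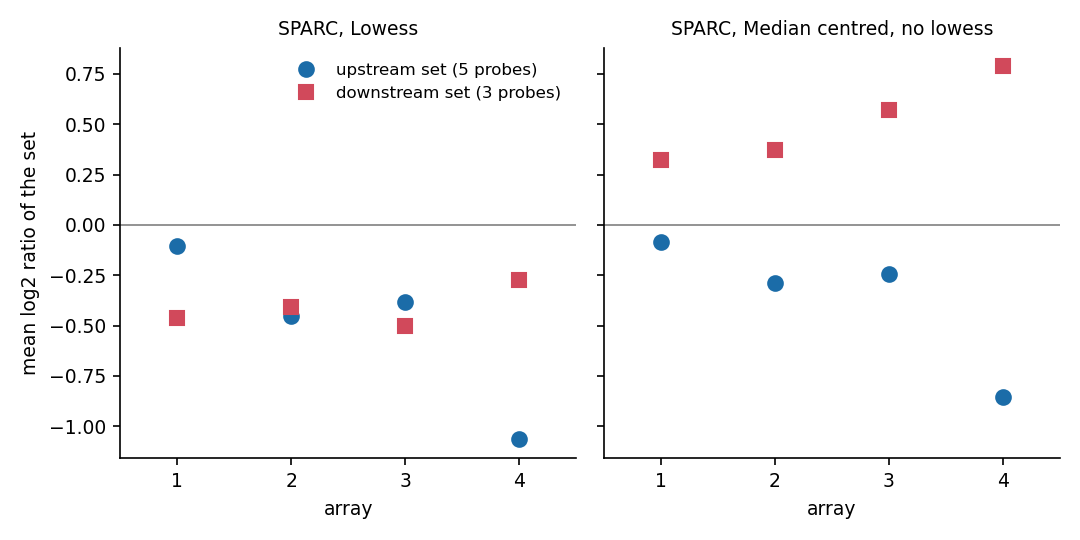
Mean log2 ratio of the 5 upstream (circles) and 3 downstream (squares) probes of *SPARC* (vertical axis) on each of the 4 arrays (horizontal axis), on the lowess scale (left) and the median-centred scale (right). On the left both sets lie below 0 on all arrays, and on the right the downstream set lies between 0.32 and 0.79 while the upstream set stays below 0.

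Fibronectin, the fibril-forming ligand of integrins, was lower on the lowess scale and higher on the median-centred scale with every one of its 9 probes. For the brightest, A_69_P002646 at chr6:5490182-5490241, the lowess ratios were -0.19, -0.19, -0.42 and -0.24, and all 4 arrays were below 0. The mean of -0.26 ± 0.11 (SD, n = 4) had a limma adjusted p of 0.0378 but lay under the fold threshold. The median-centred ratios were 0.49, 0.49, 0.52 and 0.71, with a mean of 0.55 ± 0.11 (SD, n = 4; limma adjusted p = 0.00285), and so passed as higher. The other 8 probes, of which 2 have the same sequence, lie at chr6:5493803-5494425 and had a mean lowess ratio of 0.08, -0.03, -0.40 and -0.24 on arrays 1 to 4. On the lowess scale the arrays thus fell on both sides of 0 for this set, and its probe means lay between -0.18 and -0.11. With median centring the set was above 0 on all 4 arrays (0.48, 0.44, 0.19 and 0.40), and with the brightest probe 5 of 9 passed as higher.

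Periostin, a matricellular protein that binds fibronectin and tenascin C, was lower on both scales with 3 of its 4 probes. These 3 lie within chr17:16238532-16239674, and all 3 overlap, so that they partly repeat one measurement. A_69_P124626 and A_69_P040147 share 51 bases, and A_69_P040146 shares 20 bases with the latter and 11 with the former. They were dim, with the signal of A_69_P124626 between 41.1 and 47.6 in GO-treated and between 44.1 and 75.1 in control cells after processing. Their mean lowess ratios were -0.44, -0.19, -0.79 and -0.44, below 0 on all 4 arrays and lowest on array 3. A_69_P040146 had a mean lowess ratio of -0.51 ± 0.22 (SD, n = 4; limma adjusted p = 0.0147) and passed, as did A_69_P124626 with -0.42 ± 0.23 (limma adjusted p = 0.0302). The brightest, A_69_P040147, had ratios of -0.27, -0.23, -0.98 and -0.38, and its mean of -0.47 ± 0.35 just missed the threshold (limma adjusted p = 0.0512). All 3 passed as lower on the median-centred scale. There, the call of the brightest was lost without array 2, 3 or 4. The calls of the pair that passed on the lowess scale were lost without array 3 (limma adjusted p = 0.0515 and 0.101), and that of A_69_P124626 also without array 1 or 4. Neither of the pair passed with normexp and loess (means -0.22 and -0.18, limma adjusted p = 0.0768 and 0.106) or with unpaired channels (limma adjusted p = 0.444 and 0.330). The fourth probe, A_69_P124627, which lies 4868 bases away and whose sequence is printed above, had lowess ratios of 0.03, 0.53, -0.27 and 0.09, with the arrays on both sides of 0 and a mean of 0.10 (limma adjusted p = 0.619).

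Tenascin C, a matricellular protein of developing and regenerating muscle and tendon, was lower with all 5 of the probes so described, which overlap at chr25:15856383-15856446. For A_69_P001871 the lowess ratios were -0.28, -0.34, -0.95 and -0.79, and the mean of -0.59 ± 0.33 (SD, n = 4) had a limma adjusted p of 0.0245. All 4 arrays were below 0, with arrays 3 and 4 the lowest. All 5 probes passed as lower on the lowess and on the median-centred scale, where their means lay between -0.53 and -0.49. All 5 kept the call without array 1 and lost it without array 2, 3 or 4 (limma adjusted p for A_69_P001871 of 0.0545, 0.0715 and 0.0596). With normexp and loess all 5 passed as lower (means -0.61 to -0.56, limma adjusted p = 0.0169 to 0.0203), and with unpaired channels none did (limma adjusted p = 0.0845 to 0.106).

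Decorin was the member with a probe that passed as higher on both scales. That probe, A_69_P004716, printed above, had lowess ratios of 0.31, 0.37, 0.47 and 0.54. All 4 arrays were above 0, and the mean of 0.42 ± 0.10 (SD, n = 4) had a limma adjusted p of 0.00931. Its median-centred ratios were 0.23, 0.40, 0.51 and 0.65, with a mean of 0.45 ± 0.17 (limma adjusted p = 0.0115). On the lowess scale the call held whichever array was left out, and with median centring it was lost without array 2 (limma adjusted p = 0.0507). It was also lost with normexp and loess, where the mean of 0.37 lay just under the fold threshold (limma adjusted p = 0.00526), and with unpaired channels (limma adjusted p = 0.212). The other probe of *DCN*, A_69_P000861 at chr28:16816087-16816146, was brighter, and on the lowess scale its ratios of -0.03, 0.07, 0.003 and 0.11 surrounded 0 (mean 0.04 ± 0.06, limma adjusted p = 0.681). With median centring it was higher on all 4 arrays, with a mean of 0.74 ± 0.18 (limma adjusted p = 0.00168). The brighter probe was thus below the dimmer one by 0.38 ± 0.08 on the lowess scale and above it by 0.29 ± 0.02 on the median-centred scale. Both differences had the same sign on all 4 arrays (exact sign-flip test, two-sided p = 0.13, the smallest possible).

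Lumican, the other small leucine-rich proteoglycan among the members, had no probe past the thresholds in limma on either scale, and none with an unadjusted p under 0.05. Its brightest probe, A_69_P001491, had lowess ratios of -0.38, 0.13, 0.25 and 0.35, so array 1 stood on the other side of 0 from arrays 2, 3 and 4, and the mean was 0.08 ± 0.33 (SD, n = 4; limma adjusted p = 0.663). The 5 tiled probes, of which the first is printed above, had mean lowess ratios of -0.29, 0.09, 0.15 and -0.04, and array 1 was again the lowest. The median-centred means of the 6 probes lay between 0.01 and 0.32.

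Fibrillin 1, the main structural protein of microfibrils, had 3 probes with lowess means between 0.02 and 0.10, and none passed in limma or had an unadjusted p under 0.05. The brightest, A_69_P098526 at chr1:138694417-138694476, had lowess ratios of -0.06, 0.02, -0.03 and 0.16, with the arrays on both sides of 0. Its median-centred ratios were 0.43, 0.42, 0.55 and 0.81, and their mean of 0.55 ± 0.18 (SD, n = 4; limma adjusted p = 0.00554) passed. The 2 dimmer probes did not pass on that scale, with means of 0.13 and 0.17. MFAP5, a protein that associates with fibrillin microfibrils, had 3 overlapping probes with ratios for the brightest of 0.07, 0.07, 0.59 and 0.33. These were above 0 on all 4 arrays but spread widely (mean 0.26 ± 0.25, SD, n = 4; limma adjusted p = 0.111). Thrombospondin 1, an activator of latent TGF-beta, had a single probe with lowess ratios of 0.38, 0.17, 0.09 and 0.12, above 0 on all 4 arrays, and a mean of 0.19 ± 0.13 (SD, n = 4; limma adjusted p = 0.101).

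Both probes of *FAP* were above 0 on all 4 arrays on both scales. A_69_P041982 had lowess ratios of 0.32, 0.37, 0.33 and 0.37, the narrowest spread among the member probes described here, and a mean of 0.35 ± 0.03 (SD, n = 4; limma adjusted p = 0.0105), which lay just under the fold threshold. It passed as higher on the median-centred scale, with a mean of 0.42 ± 0.09 (limma adjusted p = 0.00767). The adjacent probe A_69_P041981 had a lowess mean of 0.24 ± 0.07 (limma adjusted p = 0.0369), also under the fold threshold.

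Across the 38 probes, 17 were lower on the lowess scale and higher on the median-centred scale. They were the 9 probes of *FN1*, the 3 downstream probes of *SPARC* and the 5 tiled probes of *LUM*. No probe turned the other way, and 8 were lower and 13 higher on both. The *FN1* and downstream *SPARC* probes were in the brightest of 10 equal classes of all tested probes. In that class 43.5% of probes were higher on the lowess and 87.2% on the median-centred scale. The tiled *LUM* probes had lowess means of only -0.04 to -0.01, and in their class the shares were 52.8% and 66.2%. How many of all tested probes turned was not counted. Of the probes that passed on both scales, 3 did so in the same direction, namely A_69_P040146 and A_69_P124626 of *POSTN* and A_69_P004716 of *DCN*, and 3 in opposite directions, those of *SPARC*. By the brightest probe of each gene, 6 of 9 were higher on the lowess scale and 8 of 9 on the median-centred scale.

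**Figure D3:**
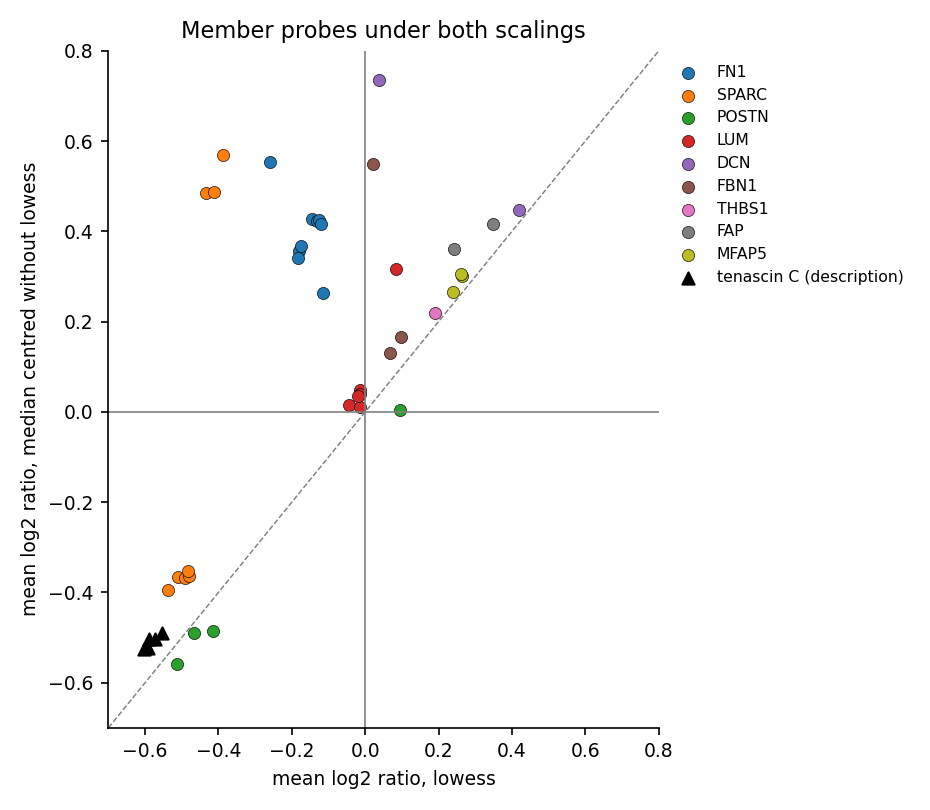
Mean log2 ratio of GO over control of each member probe on the lowess scale (horizontal axis) and the median-centred scale (vertical axis), coloured by gene, with the probes described as tenascin C as triangles. The dashed line marks equal values. The probes of *FN1* and the downstream probes of *SPARC* lie in the upper left, where the sign differs between scales, and 3 of the 4 probes of *POSTN*, the upstream probes of *SPARC* and tenascin C lie near the line at the lower left.

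The shift between scales followed brightness in all tested probes. In the dimmest of 10 equal classes of probes the median ratio was -0.07 on the lowess and -0.18 on the median-centred scale, whereas in the brightest class it was -0.03 and 0.25. In the brightest 1% (269 probes) the medians were 0.12 and 1.01, and 100% of these probes were above 0 on the median-centred scale. For RNA spiked in at equal amounts, read off the line of the observed on the expected ratio, the lowess ratio was 0.21 to 0.32 over the 4 arrays. The spiked-in RNA was on average 0.08 to 0.25 higher on the median-centred scale. Which scale is nearer to the amounts of RNA was not tested.

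To place each member among probes of like brightness, the tested probes were ranked by mean signal and divided into 100 parts of 268 or 269. This description, added after the values were seen, carries no test. The downstream probe of *SPARC* described above was below the median of its part by 0.51 on the lowess and 0.44 on the median-centred scale, and 3.35% and 4.83% of that part lay below it. Its sign turned between the scales, but its place near the bottom of its part did not. The 5 upstream probes stood at -0.51 to -0.49 from the medians of their parts on the lowess and -0.50 to -0.47 on the median-centred scale. On the median-centred scale those medians were themselves 0.10 to 0.14, against 1.01 for the part of the downstream probes. Relative to probes of like brightness, both sets of *SPARC* were thus similarly low on both scales as means over the 4 arrays. By array they were not alike. Downstream minus upstream, the lowess difference ran from -0.36 on array 1 to 0.79 on array 4. A_69_P004716 of *DCN* was above its part by 0.41 and 0.40. The brightest probe of *FN1* was 0.19 and 0.08 below the median of its part, and 23.5% and 36.6% of the part lay under it. *FBN1* was 0.13 and 0.14 above its part and the bright *DCN* probe 0.10 and 0.10 above, so neither stood far from probes of its brightness on either scale. *POSTN* (-0.48 and -0.46 for the brightest probe) and the tenascin C probe A_69_P001871 (-0.62 and -0.62) stood well below.

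**Figure D4:**
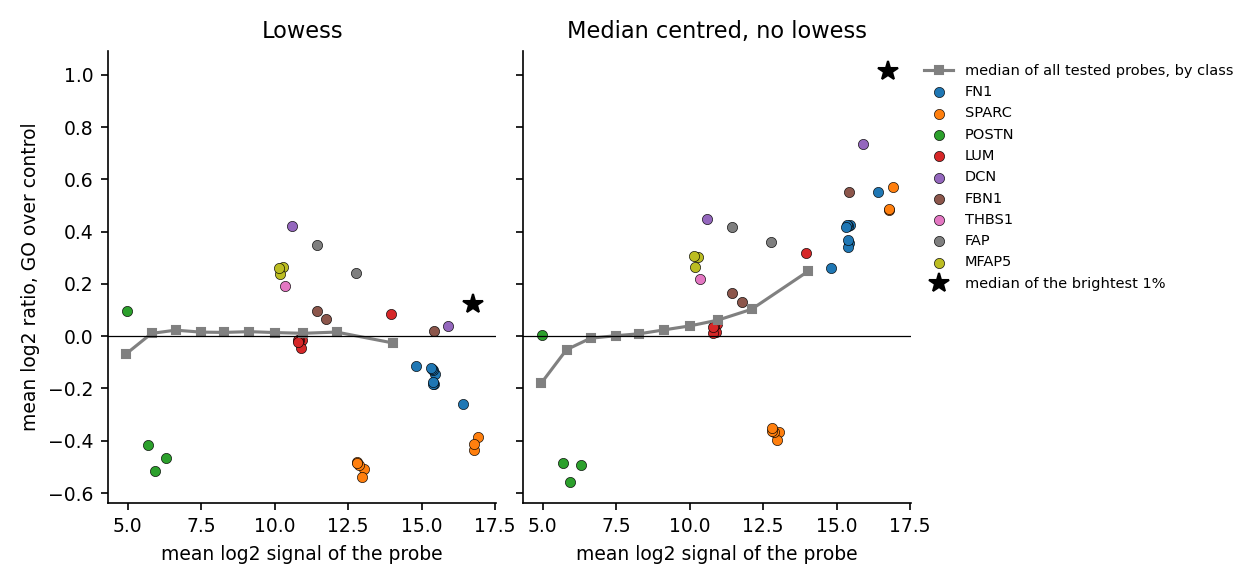
Mean log2 ratio of GO over control (vertical axis) against mean log2 signal (horizontal axis) of the member probes, coloured by gene, on the lowess scale (left) and the median-centred scale (right). Grey squares are the medians of all tested probes in 10 classes of brightness and the star that of the brightest 1%. On the right the medians climb from -0.18 to 1.01 with brightness, and *FN1*, *FBN1* and the bright *DCN* probe climb with them, while the downstream *SPARC* probes lie below the star on both sides.

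Lists of other matrix genes gave the setting of the members. Of 50 such genes tested, 8 passed on the lowess scale, 2 higher and 6 lower, and 12 on the median-centred scale, 7 higher and 5 lower, beside the shares of all genes given above. None of 7 further small leucine-rich proteoglycans passed in limma on the lowess scale (list median -0.02), where 3 had an unadjusted p under 0.05, and 1 passed with normexp and loess. Biglycan (*BGN*), the closest relative of decorin, had a lowess mean of -0.02 and a median-centred mean of 0.96, and passed as higher on the latter alone.

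Among 14 genes of microfibrils and elastic fibers (list median 0.14), 1 passed as higher and 1 as lower. *MFAP2*, a fibrillin-associated glycoprotein, was higher by 0.39 ± 0.19 (SD, n = 4; limma adjusted p = 0.0256), a call lost without array 1 or 3 (limma adjusted p up to 0.0953). *LOXL1*, a lysyl oxidase-like enzyme that cross-links elastin, had a mean of -0.53 ± 0.14 (limma adjusted p = 0.00663) and passed as lower, but not on the median-centred scale (-0.22). *FBN2*, the second fibrillin (0.12), and *LTBP1*, which anchors latent TGF-beta to microfibrils (-0.29), did not pass.

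Of 11 other matricellular genes (list median -0.22), 2 passed as lower on both scales. Osteopontin (*SPP1*) had lowess ratios of -1.50, -1.13, -1.34 and -1.17, all far below 0, and a mean of -1.28 ± 0.17 (SD, n = 4; limma adjusted p = 0.00102). Tenascin N (*TNN*) had a mean of -0.57 ± 0.22 (limma adjusted p = 0.0113). Both calls held whichever array was left out.

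Among 12 receptors and partners of fibronectin and thrombospondin (list median 0.11), none passed as higher in limma on the lowess scale (4 were higher at an unadjusted p under 0.05) and 2 passed as lower. They were *DPP4*, the membrane protease most closely related to FAP (-0.74 ± 0.23, SD, n = 4; limma adjusted p = 0.00614), and *ITGA4*, the alpha chain of a fibronectin-binding integrin (-0.47 ± 0.20; limma adjusted p = 0.0162). The 5 probes of *ITGA4* had means from -0.47 to -0.15, and its call was lost without array 2 (limma adjusted p = 0.0739). *DPP4* and *FAP*, whose proteins form a pair of related proteases, thus lay on opposite sides of 0 on both scales, with *DPP4* at -0.96 on the median-centred scale. The probe of *DPP4* was very dim, however, with a mean log2 signal of 3.93, against 12.8 for the brightest probe of *FAP*. The median signal of the dimmest class of tested probes was 4.94, so the contrast rests on a probe of very low signal.

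Of 6 genes of TGF-beta signaling tested (list median -0.07), *TGFB1* was higher by 0.55 ± 0.21 (SD, n = 4; limma adjusted p = 0.0117) and *TGFB2* lower, with lowess ratios of -0.84, -0.75, -0.88 and -0.88 (mean -0.84 ± 0.06, limma adjusted p = 0.00121). Both ligands passed in the same directions on the median-centred scale, and both calls held whichever array was left out.

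**Figure D5:**
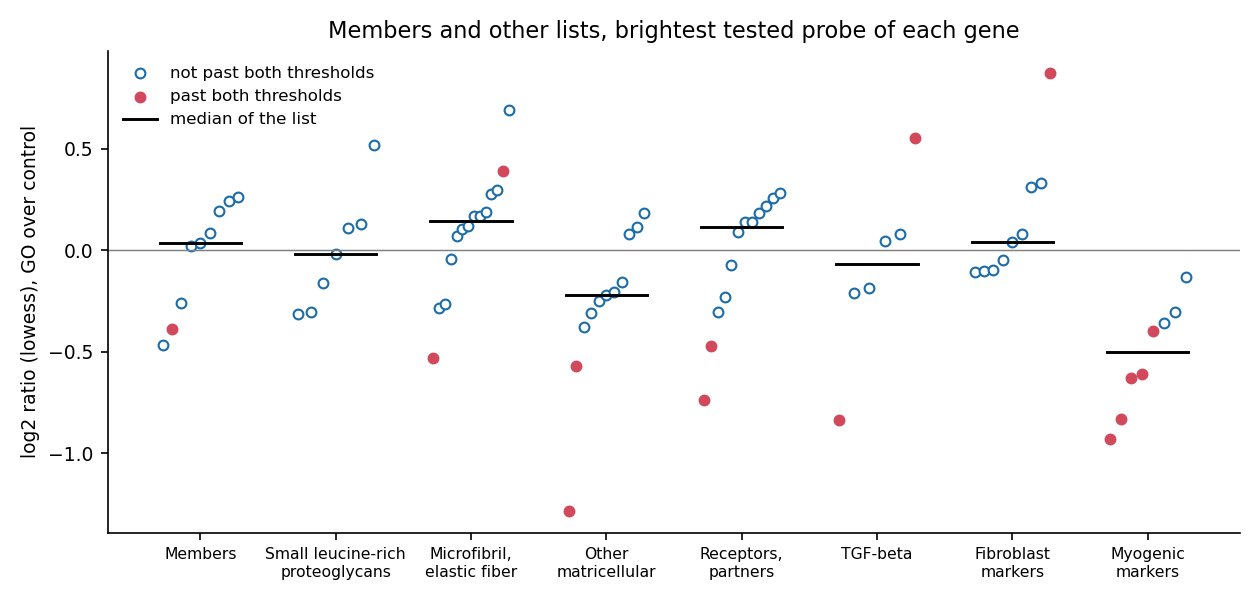
Lowess log2 ratio of GO over control (vertical axis) of the brightest tested probe of each gene, for the members and for the other lists (horizontal axis). Filled points passed both thresholds, open points did not, and bars are list medians. The member median lies at 0.04 with *SPARC* as the filled point, and the myogenic markers lie below 0 throughout.

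The lists of myogenic and fibroblast markers moved differently. Whether fibroblasts were present in these cultures, and in what share, was not tested. Of the 8 myogenic markers, 5 passed as lower on the lowess scale (*MYF5*, *MYH3*, *NCAM1*, *DES* and *MYOG*) and 2 on the median-centred scale. The summed processed signal of the 8 was 59822 to 79349 in GO-treated and 100813 to 133573 in control cells. *MYH3* and *DES*, the brightest of them (mean log2 signals 15.9 and 14.2), weigh most in these sums. Of the 9 fibroblast markers, 1 passed on the lowess scale, *PDGFRA* (0.87 ± 0.48, SD, n = 4; limma adjusted p = 0.0198), which was lost without array 2 (limma adjusted p = 0.0740). The probe of *PDGFRA* was dim, with a mean log2 signal of 5.31, against 6.31 for the brightest probe of *POSTN*. The summed signal of the 9 fibroblast markers was 376430 to 521920 in GO-treated and 347885 to 551926 in control cells, and the ranges overlapped. Within arrays the log2 ratio of the sums, GO over control, was -0.02, 0.06, -0.08 and 0.11 on arrays 1 to 4, on both sides of 0. On the median-centred scale 5 of the 9 passed as higher. The summed signal of the 9 members by their brightest probes was 283181 to 348729 in GO-treated and 298355 to 417546 in control cells, and again the ranges overlapped. Within each array, however, the GO channel had the smaller sum on all 4, with log2 ratios of the sums of -0.23, -0.19, -0.26 and -0.08. *SPARC* and *FN1*, both lower on the lowess scale, weigh most in these sums. On array 1 they gave 104622 and 82034 of 331360 in the GO channel. By gene, 6 of the 9 members were higher on that scale. With median centring the log2 ratios of the member sums were 0.40, 0.46, 0.62 and 0.81, above 0 on all 4 arrays. Those of the fibroblast markers were then also above 0 on all 4 (0.75 to 1.14), and those of the myogenic markers stayed below 0 on all 4 (-0.35 to -0.11, against -0.97 to -0.49 on the lowess scale). The fibroblast sum is mostly that of *COL1A2*, *COL3A1* and *S100A4*, whose probes are among the brightest 1%. That class had a median of 1.01 on the median-centred scale, so the fibroblast values were near those of probes of like brightness. Smooth muscle and pericyte markers (4 tested) and leukocyte markers (2 tested) had none past the thresholds in limma on either scale. At an unadjusted p under 0.05 they had 0 and 1 on the lowess scale and 1 and 2 on the median-centred scale. What part the myogenic and fibroblast markers have in the values of the members was not tested.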

How the data were processed

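RNA of GO-treated (Cy5) and control (Cy3) cells was hybridised to 4 two-color Agilent horse arrays on a single slide, which leaves no slide effect to test. The authors processed the scans with Feature Extraction, whose version is 10.10.1.1 in the headers. Among the deposited intensity columns are background-subtracted and processed signals, mean signals and local backgrounds, and the deposited log10 ratios are those of the processed signals after linear and lowess dye normalization. The table of the whole series held the same log10 ratios (180880 of 180880 values).

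Ratios were converted to log2, the 1417 control spots and all outlier-flagged spots were removed, and repeat spots of a probe were averaged. The ratios were tested against 0 with limma (version 3.58.1, R 4.3.3; two-sided), which was tested on simulated data, with Benjamini-Hochberg adjustment over 26831 probes. 1 tested probe had no median-centred value on an array. Members, lists and tests were chosen with earlier results of these data known. All member probes are described. For the other lists, genes that passed were named, at most 4 of each, with *TGFB2*, *FBN2*, *LTBP1* and *BGN* in any case. The alternatives were normexp (offset 50), loess or median centring, other filters, array weights, a plain one-sample test, separate channels and leaving out arrays. For arrays, their number limits precision. Figures were drawn with matplotlib (version 3.10.9).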

Additional observations from a re-analysis of the deposited data

How the results depend on the processing

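The 4 arrays and their single dye orientation limit every value, and dim probes such as those of *POSTN* and *DPP4* limit it further. The number of all probes past the thresholds (2399) was 1297 with normexp and loess, 368 with normexp and median centring, 908 with no filter on dim probes, 147 with a plain one-sample test and 1566 to 2430 on leaving out an array. With the channels treated as unpaired, without the replicate block that the array provides, it was 923, with 3 member probes and 5 genes of the other lists. Member genes past the thresholds (1) were 5 with median centring, 2 with a filter on both channels, 2 with array weights, 0 with normexp and loess, 0 with normexp and median centring, 0 with the plain test and 0 to 1 on leaving out an array. An unadjusted p under 0.05 was reached by 6 of the 9 in the limma test as reported, 6 with normexp and loess, 7 with normexp and median centring and 3 with the plain test. Median centring with an array left out, chosen after seeing the data, gave 8 member genes without array 1 and 4 without any other array, 20, 8, 16 and 14 member probes without arrays 1 to 4 respectively, 2547 to 4113 probes in all and 8 to 13 genes of the other lists. Member probes (7) were 15 with median centring, 11 with array weights, 3 with no filter, 0 with normexp and median centring, 0 with the plain test and 2 to 6 on leaving out an array. Genes of the other lists (8) were 2 with normexp and median centring, 3 with no filter and 1 with the plain test.

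*FN1* (-0.26) reversed to 0.037 with normexp and loess, 0.55 with median centring, 0.64 with normexp and median centring and, with median centring without arrays 1 to 4, to 0.57, 0.57, 0.56 and 0.50. *SPARC* (-0.39) reversed to 0.57 with median centring, 0.66 with normexp and median centring and, with median centring without arrays 1 to 4, to 0.64, 0.62, 0.54 and 0.47, and with normexp and loess was -0.0040. *LUM* (0.08) was -0.0041 as the mean of its probes and -0.0037 (without array 4) to 0.24 (without array 1) on leaving out an array, and *FBN1* (0.02) was -0.023 (without array 4) to 0.049 (without array 1). The cause of these reversals was not tested. *POSTN*, *DCN*, *THBS1*, *FAP* and *MFAP5* kept their direction in all 20 alternatives of each. Several of these, such as the plain test, the table of the whole series and unpaired channels, leave the mean ratio unchanged. Those alternatives could not reverse a direction, so the replicate block could reverse no member.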
